A study of Rattus norvegicus with 8 samples.

Results

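The genes described here encode enzymes that bind FAD or FMN, the cofactors made from riboflavin, or that pass electrons through bound flavins. They were taken by name from a list of 49 genes. The list goes by cofactor and not by measured values, but it was drawn up with earlier results of these data known. Of the 49, 48 had a probe set among the 22093 genes measured. Fdxr, a mitochondrial ferredoxin reductase, had no probe set named here. The 48 genes fell into 7 classes by the reaction they carry out: 9 acyl-CoA dehydrogenases, 3 electron transfer flavoprotein genes, 9 mitochondrial dehydrogenases, 8 reductases, 11 oxidases, 6 monooxygenases and 2 lysine demethylases.

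Rat oesophagus was profiled on Affymetrix arrays in 4 groups of 2 arrays. Every rat, in both diet groups, had been injected under the skin with 0.35 mg/kg NMBA, given 3 times a week for 5 weeks. NMBA is N-nitrosomethylbenzylamine, a carcinogen to which the oesophagus of rats is prone. Throughout, some rats had normal riboflavin in the diet and the others a riboflavin-deficient diet, until they were killed at week 25. Each of 4 rats, 2 per diet, gave 1 array of epithelial neoplasia and 1 of adjacent normal tissue, so the diets differ between animals while the tissues are paired within them. No rat without NMBA was measured in the samples used here, and strain, sex and age are not given in the sources used here. The tissue was isolated from fixed, paraffin-embedded oesophagus, so each array is a mixture of cells in which fewer cells of a type and less RNA per cell cannot be told apart. The groups are called normal-diet and deficient-diet below, and arrays are given by replicate number.

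Riboflavin is phosphorylated to FMN and then adenylated to FAD, and both serve as redox cofactors held inside enzymes. In mitochondria, acyl-CoA dehydrogenases oxidise fatty acid and amino acid intermediates and hand electrons to the electron transfer flavoprotein, whose own oxidoreductase passes them to ubiquinone. In rat liver, riboflavin deficiency is known to lower the activity of several acyl-CoA dehydrogenases. Arrays measure transcripts, and neither bound cofactor nor enzyme activity was measured.

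Values are log2 RMA values, in which a difference of 1 is a doubling. Of the 48 genes, 32 had a mean over the arrays at or above the table's median gene, 5.11, and 16 had a mean below it. The array's 1153 negative control probe sets give a measure of background. Only Acadm, Acadl and Etfa exceeded the 75th percentile of those controls on all 8 arrays, 12 genes exceeded it on at least 1 array, and 36 on none. Against the controls' median, 21 genes were above it on all arrays and 15 on none. Small differences among those 15, which include Acads, Smox, Maob, Fmo1 and Aifm2, are differences at background level.

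The arrays themselves were unequal. The SD of gene values was 1.75 on normal-diet adjacent normal replicate 2 and 1.33 to 1.62 on the others. The median of the positive control probe sets was 8.34 there and 6.06 to 7.63 elsewhere. In neoplasia that median was 7.38 and 7.63 on the normal diet and 6.49 and 6.44 on the deficient diet. The SDs in neoplasia were 1.59 and 1.62 on the normal diet and 1.39 and 1.37 on the deficient diet. Tissue markers were unequal too. The median of 22 skeletal muscle genes was 12.76 on normal-diet adjacent normal replicate 2 and 9.63 to 11.39 on the others. The median of 16 squamous epithelium genes was 9.15 on normal-diet adjacent normal replicate 1 and 10.38 to 13.88 on the others. No marker of either list was at 0 on any array. The log2 of the summed level of the skeletal muscle list ran from 19.03 to 20.25 in normal-diet adjacent normal tissue, 18.96 to 18.97 in normal-diet neoplasia, 18.07 to 19.78 in deficient-diet adjacent normal tissue and 18.29 to 18.35 in deficient-diet neoplasia. For the squamous list the same ranges were 19.98 to 21.88, 21.92 to 21.97, 21.52 to 21.91 and 21.06 to 21.60. These sums are bounds, since 3 of the 16 squamous genes met the table's ceiling of 19.93 on at least 1 array. Beyond an alternative model with the array SD as a covariate, the part of these differences in the results was not tested.

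No gene of the 48 passed an adjusted p under 0.05 in any of the 7 comparisons, which covered the neoplasia effect (its mean, within each diet, and its difference between diets) and the diet effect (in each tissue and over both). The share of all 22093 genes called was 0% in each. With 2 animals per diet, the limma fit could not separate these genes from their spread, and a missed threshold does not show that a gene was unchanged. The values below are therefore descriptions with their errors, and adjusted p-values are from limma with Benjamini-Hochberg adjustment over all genes. The comparisons share arrays: the same normal-diet adjacent normal pair enters the neoplasia effect of that diet and the diet effect in adjacent normal tissue.

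**Figure D1:**
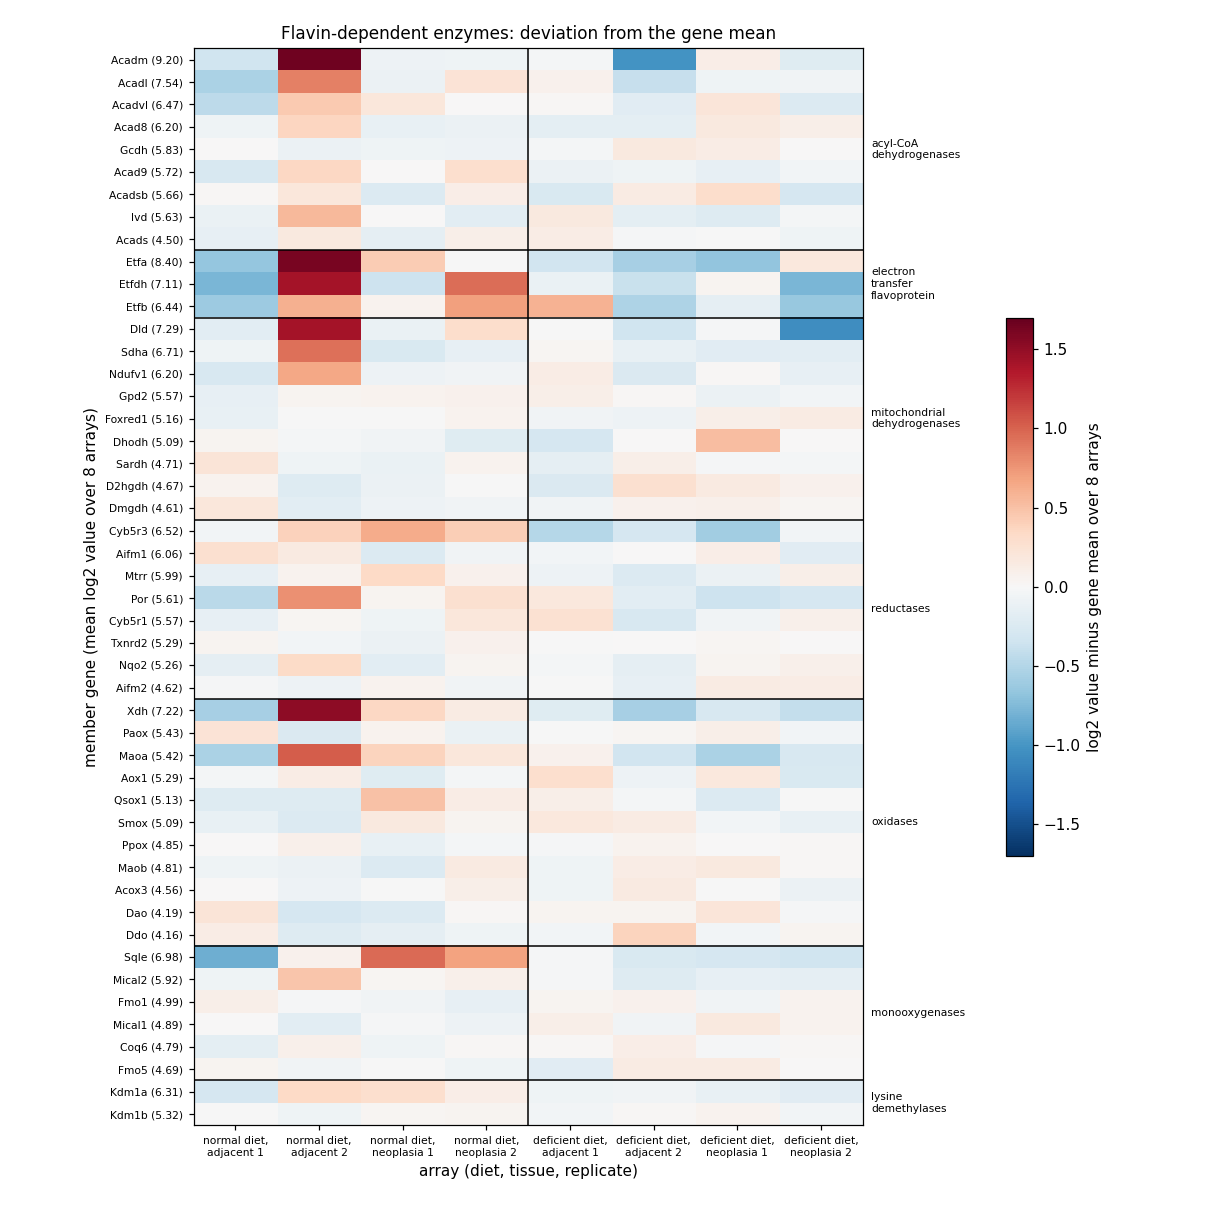
Map of the 48 flavin-dependent genes (rows, by class, with the mean log2 value in brackets) over the 8 arrays (columns, by diet, tissue and replicate). Colour is the log2 value minus the gene's mean. The column of normal-diet adjacent normal replicate 2 holds the highest value of 19 genes, with Acadm, Etfa, Etfdh, Dld and Xdh darkest.

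The pattern seen most often was a high value on a single array. On normal-diet adjacent normal replicate 2, 19 of the 48 genes (39.6%) had their highest value, against 17.8% of all genes. Among the 32 genes at or above the median gene, 17 did so, against 30.6% of all genes at or above it. In 9 of the 48 (18.8%, against 4.66% of all genes) the highest array stood more than 0.5 above the second highest, and on no other array did a member stand that far apart. Ranges over the 8 arrays ran from 0.13 to 2.66 with a median of 0.54, against 0.62 for all genes. The range was under 0.5 in 18 genes and over 1 in 12.

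Among the acyl-CoA dehydrogenases, the highest signals belonged to Acadm, the medium-chain enzyme of fatty acid oxidation, with a mean of 9.20. Its values were 8.86 and 10.84 in normal-diet adjacent normal tissue, 9.10 and 9.13 in normal-diet neoplasia, 9.16 and 8.18 in deficient-diet adjacent normal tissue, and 9.31 and 8.99 in deficient-diet neoplasia. The array at 10.84 stood 1.54 above the next, and the other 7 lay between 8.18 and 9.31. Acadm was lower by 1.18 ± 0.64 (SE) in deficient-diet than normal-diet adjacent normal tissue (log2 difference -1.18, adjusted p = 1 by limma). Without normal-diet animal 2 that difference was -0.19, and without normal-diet animal 1 it was -2.17. The neoplasia effect of Acadm in normal-diet rats was -0.73 ± 0.50, with 0.25 in the first pair and -1.72 in the second. In deficient-diet rats it was 0.48 ± 0.50, and 0.15 without deficient-diet animal 2.

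Acadl, which acts on longer chains, was also highest on that array. It read 7.01 and 8.40 in normal-diet adjacent normal tissue, 7.44 and 7.77 in the neoplasia, 7.61 and 7.16 in deficient-diet adjacent normal tissue and 7.48 and 7.48 in the neoplasia. Its diet difference was -0.32 ± 0.44 in adjacent normal tissue and -0.13 ± 0.44 in neoplasia. Without normal-diet animal 2 these were 0.37 and 0.04, so the sign rested on that animal in both tissues. Acadvl, the very-long-chain enzyme, ranged from 6.03 to 6.91, and Acad9, which also serves in the assembly of complex I, from 5.45 to 6.07. Both were lowest on normal-diet adjacent normal replicate 1 and highest on replicate 2 of that group.

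The other acyl-CoA dehydrogenases are mostly enzymes of amino acid breakdown. Acad8, the isobutyryl-CoA dehydrogenase of valine breakdown, read 6.12 and 6.57 in normal-diet adjacent normal tissue, 6.08 and 6.11 in the neoplasia, 6.03 and 6.03 in deficient-diet adjacent normal tissue and 6.37 and 6.30 in the neoplasia. Neoplasia was lower in both normal-diet pairs, by -0.05 and -0.46, and higher in both deficient-diet pairs, by 0.34 and 0.26. The difference between the diets was 0.55 ± 0.25 (adjusted p = 1 by limma), and it was 0.35 without normal-diet animal 2. Ivd, of leucine breakdown, ranged from 5.40 to 6.18. Acadsb, of isoleucine breakdown, ranged from 5.37 to 5.95, and Gcdh, of lysine and tryptophan breakdown, from 5.74 to 5.99. Acads, the short-chain enzyme, stayed between 4.35 and 4.67 on all arrays, below the negative control median. Over the 9 genes, 7 were lower and 2 higher on the deficient diet in adjacent normal tissue, with a median of -0.16. Among all genes at or above the median gene, 6049 were lower and 4921 higher there, with a median of -0.03. As each animal was left out, Acads, Acadl, Acadvl and Ivd changed sign there, while Acadm, Acad8 and Gcdh did not. In neoplasia 5 of the 9 were lower and 4 higher, with a median of -0.01. Among all genes at or above the median gene, 7238 were lower and 3726 higher in neoplasia.

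**Figure D2:**
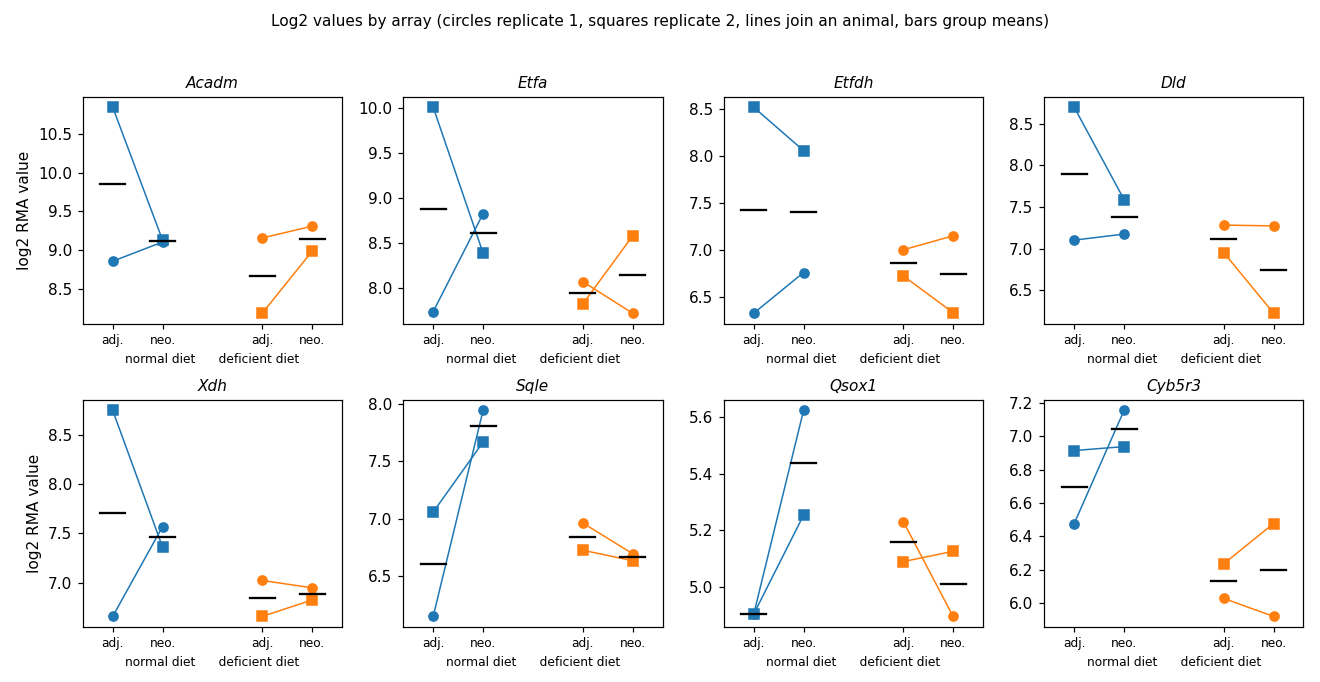
Log2 RMA values of 8 flavin-dependent genes on each array. Circles are replicate 1 and squares replicate 2, lines join the adjacent normal tissue (adj.) and neoplasia (neo.) of an animal, and bars are group means. Acadm, Etfa, Etfdh, Dld and Xdh have their highest square in normal-diet adjacent normal tissue, while Sqle is highest in the neoplasia of both normal-diet animals.

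The electron transfer flavoprotein is a pair of subunits, Etfa and Etfb, and Etfdh is the membrane enzyme that takes its electrons. Etfa read 7.74 and 10.01 in normal-diet adjacent normal tissue, 8.83 and 8.39 in the neoplasia, 8.07 and 7.82 in deficient-diet adjacent normal tissue and 7.72 and 8.58 in the neoplasia. The normal-diet adjacent normal pair spanned nearly the whole range of the gene. Etfdh read 6.33 and 8.52 in normal-diet adjacent normal tissue, 6.76 and 8.06 in the neoplasia, 7.004 and 6.73 in deficient-diet adjacent normal tissue and 7.15 and 6.33 in the neoplasia. Both arrays of normal-diet animal 2 were above all others, so for this gene the animal, not the tissue, held the highest values. Etfb read 5.82 and 7.04 in normal-diet adjacent normal tissue, 6.50 and 7.14 in the neoplasia, 7.03 and 5.93 in deficient-diet adjacent normal tissue and 6.29 and 5.80 in the neoplasia.

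All 3 genes had lower means on the deficient diet over both tissues. The difference was -0.69 ± 0.35 for Etfa, -0.61 ± 0.65 for Etfdh and -0.36 ± 0.44 for Etfb (adjusted p at least 0.887 by limma). Without normal-diet animal 2, Etfa was at -0.23, Etfdh at 0.26 and Etfb at 0.10. Without deficient-diet animal 2, Etfb was at 0.04. The skeletal muscle markers were also highest in the adjacent normal tissue of normal-diet animal 2, and their part in the result was not tested. Etfb had neoplasia above adjacent normal tissue in both normal-diet pairs (0.68 and 0.09) and below it in both deficient-diet pairs (-0.74 and -0.12). The difference between diets was -0.82 ± 0.35 (adjusted p = 1 by limma), and -0.51 without deficient-diet animal 1.

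Dld, the dihydrolipoyl dehydrogenase shared by the pyruvate and oxoglutarate dehydrogenase complexes, led the mitochondrial dehydrogenases. It read 7.10 and 8.70 in normal-diet adjacent normal tissue, 7.17 and 7.59 in the neoplasia, 7.28 and 6.95 in deficient-diet adjacent normal tissue and 7.27 and 6.22 in the neoplasia. The highest value was on normal-diet adjacent normal replicate 2 and the lowest on deficient-diet neoplasia replicate 2. Its diet difference was -0.78 ± 0.57 in adjacent normal tissue and -0.63 ± 0.57 in neoplasia. Without normal-diet animal 2, the difference in adjacent normal tissue was 0.02, and without deficient-diet animal 2, whose array read 6.22, that in neoplasia was -0.11. Etfdh and Dld are shown by the 250 bases before their start sites. Both rank among the mitochondrial genes that were high on the same array, and both hold TGCGCA, called the NRF1 core here. These letters are a palindrome and only a part of the NRF1 site. NRF1 is a factor known to act on nuclear genes of mitochondria. The sequences are from RefSeq on GRCr8, Etfdh at chr2:167060759-167061008 and Dld at chr6:53652348-53652597, both on the minus strand, and the capitals mark the core.
Etfdh: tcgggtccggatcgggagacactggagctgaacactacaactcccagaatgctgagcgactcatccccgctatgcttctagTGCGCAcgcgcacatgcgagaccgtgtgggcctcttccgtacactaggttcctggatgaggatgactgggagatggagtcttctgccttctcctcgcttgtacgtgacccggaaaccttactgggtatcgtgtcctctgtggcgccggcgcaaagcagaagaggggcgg
Dld: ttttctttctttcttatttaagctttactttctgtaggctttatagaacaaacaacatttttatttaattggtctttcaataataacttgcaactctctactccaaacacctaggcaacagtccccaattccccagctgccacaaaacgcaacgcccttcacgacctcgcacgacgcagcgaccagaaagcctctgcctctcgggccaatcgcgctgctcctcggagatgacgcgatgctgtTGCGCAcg
The core lay 169 to 164 bases before the start in Etfdh and 8 to 3 bases before it in Dld. A promoter was given for 45 of the 49 listed genes, and 7 of these held TGCGCA (Aifm1, D2hgdh, Dld, Etfdh, Kdm1b, Nqo2 and Sdha), against 6.14% of 33469 promoters of the same length, both strands being read. These matches are a description of the letters. Acadm, Etfa and Xdh, which were also high on that array, did not hold the core in their windows.

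Sdha, the flavoprotein subunit of succinate dehydrogenase (complex II), read 6.63 and 7.65 in normal-diet adjacent normal tissue, 6.45 and 6.57 in the neoplasia, 6.74 and 6.58 in deficient-diet adjacent normal tissue and 6.51 and 6.53 in the neoplasia. Neoplasia was lower in all 4 pairs. The mean neoplasia effect was -0.38 ± 0.18 (adjusted p = 1 by limma), and it ran from -0.61 to -0.16 as each animal was left out, being nearest 0 without normal-diet animal 2. Ndufv1, the FMN-binding subunit of complex I, ranged from 5.93 to 6.86 and was also highest on normal-diet adjacent normal replicate 2. The skeletal muscle list was lower in neoplasia in normal-diet pair 2 and deficient-diet pair 1, by medians of -1.75 and -1.22, and its part in the result was not tested.

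The other mitochondrial dehydrogenases were near or below the median gene. Dhodh, which makes pyrimidines and binds FMN, read 5.62 on deficient-diet neoplasia replicate 1 and 4.81 to 5.14 on the other 7 arrays. Its diet difference in neoplasia was 0.40 ± 0.21, and deficient-diet neoplasia replicate 1 was its only array above the negative control median. On that same array the median of 10 adipocyte genes was 6.18, against 5.08 to 5.30 on the others, and their part in the result was not tested. Gpd2, of the glycerol phosphate shuttle, ranged only from 5.43 to 5.67. Foxred1, needed for complex I assembly, was higher in neoplasia in all 4 pairs, with a mean effect of 0.14 ± 0.11. It exceeded the negative control median on only 1 of the 8 arrays. Sardh and Dmgdh, which demethylate sarcosine and dimethylglycine, and D2hgdh, which oxidises D-2-hydroxyglutarate, lay between 4.43 and 4.94.

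Among the reductases, Cyb5r3 showed the largest diet difference. This enzyme reduces cytochrome b5 at the endoplasmic reticulum and the mitochondrial outer membrane. It read 6.48 and 6.91 in normal-diet adjacent normal tissue, 7.15 and 6.94 in the neoplasia, 6.03 and 6.24 in deficient-diet adjacent normal tissue and 5.92 and 6.48 in the neoplasia. The groups did not overlap in either tissue, and every animal mean on the deficient diet was below both on the normal diet. The difference was -0.56 ± 0.25 in adjacent normal tissue, -0.85 ± 0.25 in neoplasia and -0.71 ± 0.17 over both tissues (adjusted p = 0.887 by limma for the last). It ran from -0.90 to -0.51 over both tissues as each animal was left out. All 22 skeletal muscle and all 9 fibroblast markers were also lower on the deficient diet there, by medians of -0.93 and -1.06. Of 16 squamous markers, 13 were lower and 3 higher, with a median of -0.81. All 38 cytosolic ribosomal protein genes were lower, with a median of -0.61. Of 10 adipocyte markers, 8 were higher. The part of these lists in the result was not tested. The window of Cyb5r3 is shown because it holds 3 GC boxes, GGGCGGG, the binding site of Sp factors. It lies at chr7:116204291-116204540 (RefSeq, GRCr8, minus strand), and the capitals mark the boxes, the middle one as its reverse complement.
Cyb5r3: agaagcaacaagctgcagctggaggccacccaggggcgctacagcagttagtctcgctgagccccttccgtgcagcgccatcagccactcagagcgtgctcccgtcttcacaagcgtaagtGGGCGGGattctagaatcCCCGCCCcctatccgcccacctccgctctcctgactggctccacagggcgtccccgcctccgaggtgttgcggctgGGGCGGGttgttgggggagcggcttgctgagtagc
The boxes lay 129 to 123, 111 to 105 and 35 to 29 bases before the start. A GC box on either strand stood in 18 of the 45 windows and in 21.0% of all 33469 promoters.

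Por, which supplies electrons to cytochromes P450, was highest on normal-diet adjacent normal replicate 2, like Dld and Sdha. It read 5.15 and 6.39 in normal-diet adjacent normal tissue, 5.66 and 5.88 in the neoplasia, 5.80 and 5.43 in deficient-diet adjacent normal tissue and 5.26 and 5.33 in the neoplasia. Its diet difference over both tissues was -0.31 ± 0.28, and 0.05 without normal-diet animal 2. In neoplasia, as for Cyb5r3, it was lower on the deficient diet without overlap of the groups. That difference ran from -0.58 to -0.36 as each animal was left out. Mtrr, which reactivates methionine synthase, ranged from 5.75 to 6.33, with a diet difference of -0.16 ± 0.10 over both tissues. Aifm1, a mitochondrial oxidoreductase known for its part in cell death, was between 5.83 and 6.34. Aifm2, which reduces ubiquinone and protects against ferroptosis, was higher in neoplasia in all 4 pairs, by a mean of 0.13 ± 0.11, but lay at 4.47 to 4.76. Nqo2, a quinone reductase, was lower in neoplasia in both normal-diet pairs and higher in both deficient-diet pairs. Its difference between diets was 0.31 ± 0.23, and 0.19 without normal-diet animal 2. Only 1 of its 8 arrays exceeded the negative control median. Txnrd2, the mitochondrial thioredoxin reductase, had a narrow range, from 5.18 to 5.36. Cyb5r1, a relative of Cyb5r3, ranged from 5.29 to 5.83, with a diet difference of 0.00 ± 0.14 over both tissues.

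**Figure D3:**
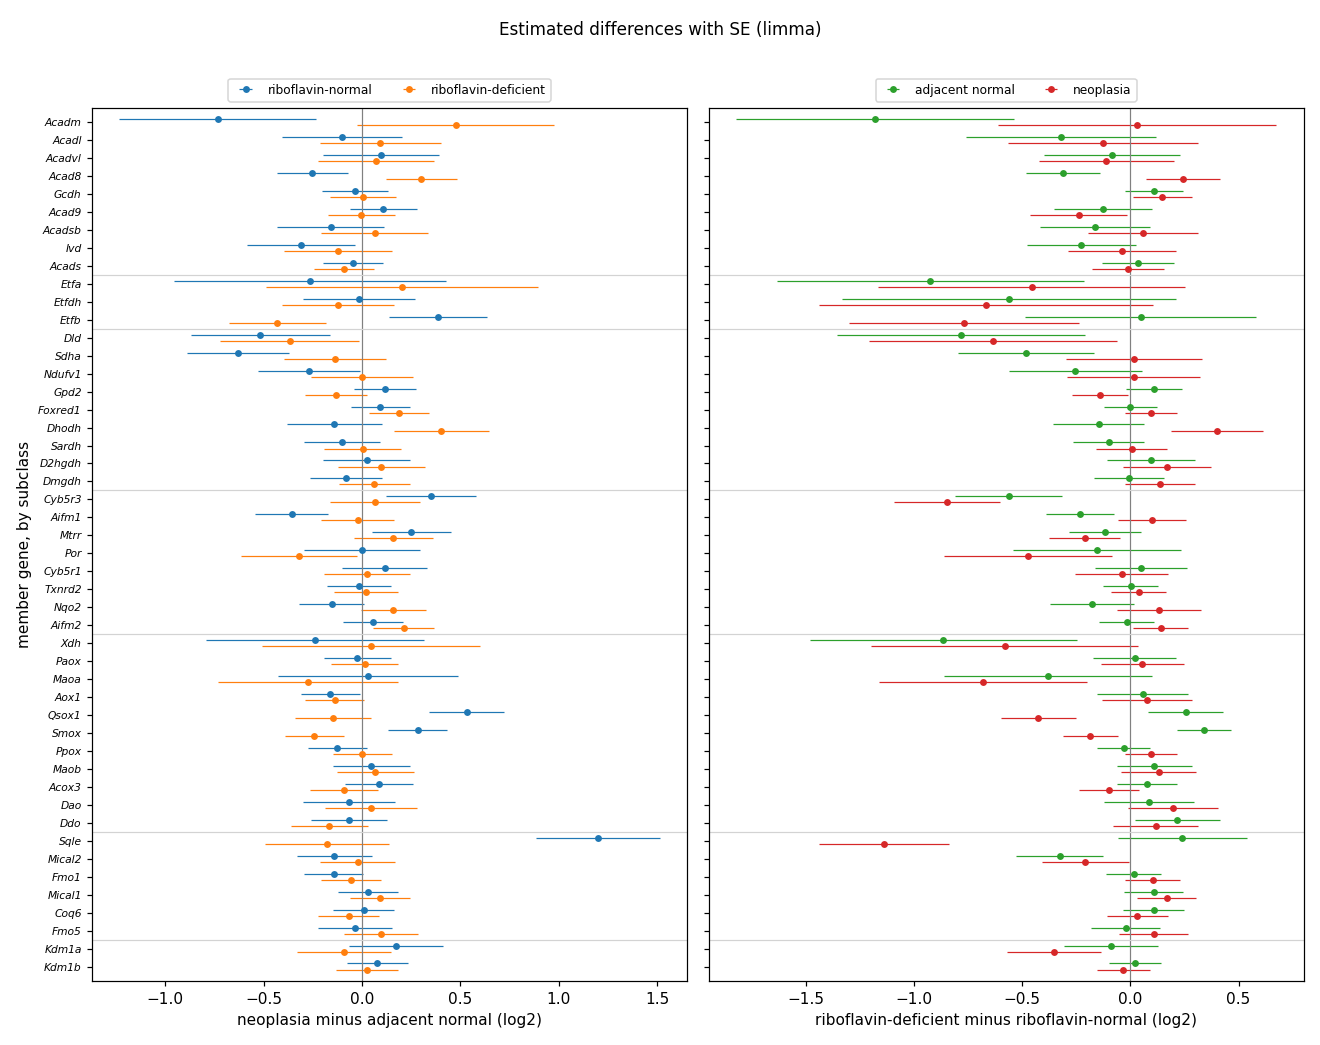
Estimated log2 differences of the 48 genes, with bars of 1 SE from the limma fits. On the left is neoplasia minus adjacent normal tissue within each diet, on the right deficient minus normal diet within each tissue. Sqle stands farthest to the right of 0 for neoplasia on the normal diet (1.20) and farthest to the left for the diet difference in neoplasia (-1.14), and no gene passed the adjusted threshold.

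Xdh, which turns hypoxanthine and xanthine into uric acid, had the highest level of the oxidases. It read 6.66 and 8.75 in normal-diet adjacent normal tissue, 7.57 and 7.36 in the neoplasia, 7.02 and 6.66 in deficient-diet adjacent normal tissue and 6.95 and 6.82 in the neoplasia. Like Dld, Sdha and Ndufv1, it was highest on normal-diet adjacent normal replicate 2, by 1.18. Its diet difference over both tissues was -0.72 ± 0.36, and -0.25 without normal-diet animal 2. Maoa, which oxidises monoamines such as serotonin, read 4.89 and 6.46 in normal-diet adjacent normal tissue, 5.80 and 5.61 in the neoplasia, 5.50 and 5.09 in deficient-diet adjacent normal tissue and 4.89 and 5.16 in the neoplasia. Its diet difference in neoplasia was -0.68 ± 0.48, with no overlap between the groups. Maob, its relative with other substrates, stayed between 4.58 and 4.98.

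Qsox1, which forms disulfide bonds in secreted proteins, was highest in the neoplasia of both normal-diet animals. It read 4.91 and 4.91 in normal-diet adjacent normal tissue, 5.62 and 5.25 in the neoplasia, 5.23 and 5.09 in deficient-diet adjacent normal tissue and 4.90 and 5.13 in the neoplasia. Both normal-diet neoplasia arrays were above all 6 others, and 1 of the 8 arrays exceeded the negative control median. The neoplasia effect on the normal diet was 0.53 ± 0.19, with pair values of 0.72 and 0.35. The diet difference in neoplasia was -0.43 ± 0.17 (adjusted p = 0.851 by limma), and -0.24 without normal-diet animal 1. The squamous epithelium list also differed by diet in neoplasia, with 15 of its 16 genes lower on the deficient diet and a median of -2.58, and its part in the result was not tested. The window of Qsox1 at chr13:70537712-70537961 (RefSeq, GRCr8, minus strand) is shown beside that of Cyb5r3 because it holds a single GC box, in capitals, 184 to 178 bases before the start.
Qsox1: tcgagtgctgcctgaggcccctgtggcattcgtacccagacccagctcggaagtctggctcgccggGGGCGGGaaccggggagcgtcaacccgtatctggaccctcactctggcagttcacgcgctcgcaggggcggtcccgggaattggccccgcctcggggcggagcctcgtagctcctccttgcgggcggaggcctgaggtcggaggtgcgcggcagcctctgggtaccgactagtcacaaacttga
The diet difference of Qsox1 in adjacent normal tissue had the opposite sign, 0.26 ± 0.17, while that of Cyb5r3 was negative in both tissues.

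Smox, which oxidises spermine, had pair values close to each other within a diet. It read 4.97 and 4.86 in normal-diet adjacent normal tissue, 5.25 and 5.14 in the neoplasia, 5.27 and 5.24 in deficient-diet adjacent normal tissue and 5.05 and 4.97 in the neoplasia. Neoplasia was higher by 0.29 and 0.28 in the normal-diet pairs and lower by 0.22 and 0.27 in the deficient-diet pairs (log2 differences -0.22 and -0.27). The difference between diets was -0.53 ± 0.21 (adjusted p = 1 by limma), at a level below the negative control median on all 8 arrays. Paox, which oxidises acetylated polyamines, ranged from 5.18 to 5.67. Aox1, an aldehyde oxidase, was lower in neoplasia in all 4 pairs, by a mean of -0.15 ± 0.11. It exceeded the negative control median on 3 of the 8 arrays. Ppox, of haem synthesis, Acox3, of peroxisomal fatty acid oxidation, and Dao and Ddo, the oxidases of D-amino acids, lay between 3.90 and 4.94 and below the negative control median on every array.

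Sqle, squalene monooxygenase, a rate-limiting enzyme of cholesterol synthesis, had the largest neoplasia effect on the normal diet and the largest diet difference in neoplasia of the 48 genes. It read 6.15 and 7.06 in normal-diet adjacent normal tissue, 7.94 and 7.67 in the neoplasia, 6.96 and 6.73 in deficient-diet adjacent normal tissue and 6.70 and 6.64 in the neoplasia. Both normal-diet neoplasia arrays were above the other 6, and the deficient-diet neoplasia arrays were below both deficient-diet adjacent normal arrays. The neoplasia effect was 1.20 ± 0.31 on the normal diet, with 1.79 and 0.61 in its pairs, and -0.18 ± 0.31 on the deficient diet, with -0.27 and -0.09. The difference between diets was -1.38 ± 0.44 (adjusted p = 1 by limma), and it ran from -1.97 to -0.79 as each animal was left out.

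The diet difference of Sqle in neoplasia was -1.14 ± 0.30 (adjusted p = 0.851 by limma), between -1.28 and -1.001 with each animal left out. It was smaller in size after quantile normalisation, at -0.72, and in a model with the array SD as a covariate, at -0.699. In adjacent normal tissue it was 0.24 ± 0.30, with overlapping groups. The squamous epithelium list also differed within pairs: its median pair difference was 3.53 and 0.26 on the normal diet and -1.45 and 0.05 on the deficient diet. Its part in the result was not tested.

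The other monooxygenases varied less than Sqle. Mical2, an actin-oxidising enzyme, ranged from 5.70 to 6.39 and was highest on normal-diet adjacent normal replicate 2. Its relative Mical1 lay at 4.71 to 5.05. Fmo1 and Fmo5, flavin-containing monooxygenases of foreign compounds, and Coq6, of ubiquinone synthesis, lay between 4.49 and 5.09. Fmo1 was lower in neoplasia in all 4 pairs, by a mean of -0.10 ± 0.11.

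Kdm1a and Kdm1b remove methyl groups from histone lysines by an FAD-dependent oxidation. Kdm1a read 6.02 and 6.65 in normal-diet adjacent normal tissue, 6.60 and 6.42 in the neoplasia, 6.24 and 6.26 in deficient-diet adjacent normal tissue and 6.19 and 6.12 in the neoplasia. Its groups did not overlap in neoplasia, where the diet difference was -0.35 ± 0.22 (adjusted p = 0.851 by limma). Kdm1b had the smallest range of the 48 genes, 0.13, around a mean of 5.32.

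Counted over the 48 genes, neoplasia was close to balanced. The mean neoplasia effect was above 0 in 20 genes and below in 28, with a median of -0.01, against 0.00 for all genes. It had the same sign in all 4 pairs for 2 genes that were higher, Aifm2 and Foxred1, and 4 that were lower, Acads, Sdha, Aox1 and Fmo1. Among all genes 4.1% were higher and 3.79% lower in this way, so 6 of 48 is near that background. At an unadjusted p under 0.05 in limma, 0 members and 2.2% of all genes passed. On the normal diet 2 members did, Sqle and Qsox1, against 3.65% of all genes. On the deficient diet none did, against 1.92%. These unadjusted counts set the scale of the result and are not calls.

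For the difference of the neoplasia effect between diets, the pair values of the diets did not overlap in 8 genes that were higher on the deficient diet (12.9% of all genes) and in 5 that were lower (15.4% of all genes). The 5 lower genes were Etfb, Gpd2, Sqle, Smox and Qsox1. Only Sqle was under an unadjusted p of 0.05 in limma, against 3.44% of all genes. The members' median difference between diets was 0.05.

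For diet within neoplasia, the groups did not overlap in 12 genes higher on the deficient diet (26% of all genes) and 12 lower (23.2%). Cyb5r3, Sqle and Qsox1 were under an unadjusted p of 0.05 in limma, against 5.08% of all genes, and all 3 were lower on the deficient diet. In adjacent normal tissue, 2 genes were higher without overlap, Smox and Qsox1 (11.8% of all genes), and 3 lower, Acad8, Cyb5r3 and Aifm1 (8.78%). Smox alone was under an unadjusted p of 0.05, against 2.37%. Over both tissues, 5 genes were higher without overlap, Gcdh, Maob, Dao, Dhodh and Mical1 (20.5% of all genes), and 8 were lower, Etfa, Mtrr, Cyb5r3, Maoa, Kdm1a, Xdh, Sqle and Mical2 (15.2%). Cyb5r3 and Sqle were under an unadjusted p of 0.05 there, against 3.8%. The members' median diet difference was 0.01 in neoplasia and -0.03 in adjacent normal tissue and over both tissues, against 0.02 for all genes in each.

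The sign of the diet difference went with signal. Of the 32 genes at or above the median gene, 26 were lower and 6 higher on the deficient diet over both tissues, with a median of -0.15. Of the 16 below it, 2 were lower and 14 higher, with a median of 0.07. Among all genes at or above the median gene, 7199 were lower and 3771 higher, with a median of -0.08. Over all 22093 genes, 10109 were lower and 11979 higher, so most genes below the median gene were also higher on the deficient diet. The spread of gene values differed in the same groups. It was 1.37 to 1.39 on the deficient-diet arrays other than adjacent normal replicate 1 (1.55), and 1.33 to 1.75 on the normal-diet arrays. The array SD was a covariate in an alternative model, but its part in this split by signal was not tested.

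**Figure D4:**
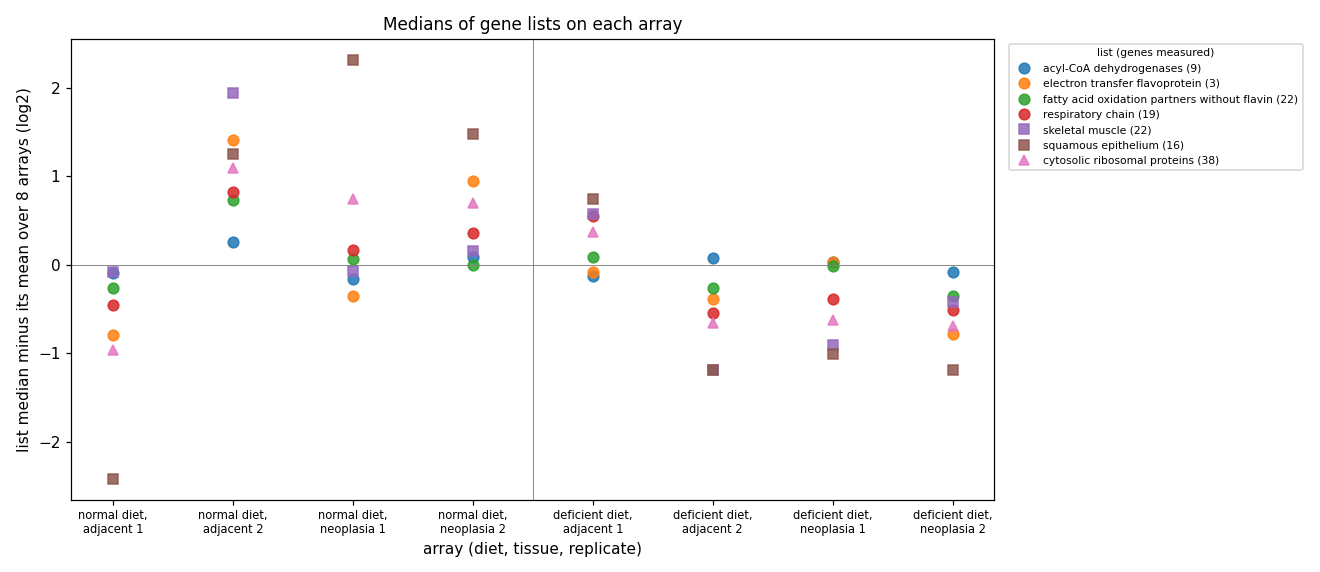
Median log2 value of gene lists on each array, minus the mean of that list's medians over the 8 arrays. Circles are metabolic lists, squares tissue markers and triangles ribosomal protein genes, with the number of genes measured in brackets. The electron transfer flavoprotein, respiratory chain, fatty acid oxidation, skeletal muscle and ribosomal lists are all highest on normal-diet adjacent normal replicate 2, and the squamous list is highest on normal-diet neoplasia replicate 1.

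Genes that work with these enzymes were counted from separate lists. Of 22 fatty acid oxidation genes without a flavin (transporters, carnitine enzymes and the later steps of the cycle), 18 were lower and 4 higher on the deficient diet over both tissues, with a median of -0.15, and none passed in limma. Their median was 6.82 on normal-diet adjacent normal replicate 2 and 5.74 to 6.18 on the other arrays. Cd36, the fatty acid transporter, read 8.03 and 9.59 in normal-diet adjacent normal tissue, 7.44 and 7.81 in the neoplasia, 7.81 and 7.28 in deficient-diet adjacent normal tissue and 9.78 and 8.08 in the neoplasia. Its neoplasia effect was -1.19 ± 0.41 on the normal diet and 1.38 ± 0.41 on the deficient diet, a difference of 2.57 ± 0.59 (adjusted p = 1 by limma). The value of 9.78 was on the array with the highest adipocyte markers, and their part in the result was not tested.

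Of 19 respiratory chain subunits, 18 had a mean neoplasia effect below 0, with a median of -0.27, and all 19 were below 0 for diet in neoplasia, with a median of -0.34, although none passed in limma. Among all genes at or above the median gene, 7238 of 10975 were below 0 for diet in neoplasia. Of the skeletal muscle markers 19 of 22 were below 0 there, with a median of -0.54, and of the squamous markers 15 of 16; their part in the result was not tested. By pair, the median neoplasia difference was 0.14 and -0.82 on the normal diet and -0.22 and 0.00 on the deficient diet, so the direction differed between animals. Of 38 cytosolic ribosomal protein genes, which use no flavin, all 38 were below 0 for diet in neoplasia, with a median of -0.89, and none passed in limma.

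Of 7 measured genes listed under flavin supply, 4 were higher and 3 lower on the deficient diet over both tissues, with a median of 0.01. Slc52a2, Slc52a3, Rfk, Slc25a32 and Sdhaf2 take up or carry flavins, make the cofactors or load them, while Enpp1 and Acp6 are hydrolases. Sdhaf2, which helps attach FAD to the succinate dehydrogenase flavoprotein, was lower by 0.37 ± 0.11 over both tissues (log2 difference -0.37, adjusted p = 0.887 by limma). Sdha itself differed there by -0.23 ± 0.22, and by 0.05 without normal-diet animal 2. A further 55 flavoenzymes outside the 48 had a median diet difference of 0.04 in neoplasia, with 32 higher and 23 lower, and a median neoplasia effect of -0.02 on the normal diet. Duox1, a dual oxidase of epithelia that makes hydrogen peroxide, was the further flavoenzyme of lowest p on the normal diet. It read 5.44 and 5.43 in normal-diet adjacent normal tissue, 6.38 and 5.81 in the neoplasia, 5.67 and 5.46 in deficient-diet adjacent normal tissue and 5.42 and 5.51 in the neoplasia. Like Sqle and Qsox1, it was highest on both normal-diet neoplasia arrays, with an effect of 0.66 ± 0.21 there and -0.63 for diet in neoplasia (adjusted p = 1 and 0.851 by limma). The squamous list differed in the same direction in both comparisons, by medians of 1.88 and -2.58.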

How the data were processed

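The authors deposited log2 values per probe set; the submitters' processing notes name RMA and Affymetrix Expression Console; versions are not given in the sources used here. RMA normalises between arrays, yet the deposited values still differed in spread between arrays, and it can understate differences at low signal. Probe sets with a single symbol in the platform annotation were kept, 1 per gene by highest mean (22093 genes). All tests were two-sided, in limma 3.58.1 (R 4.3.3; lmFit, eBayes), with Benjamini-Hochberg adjustment over all genes and a threshold of 0.05. Neoplasia was tested with a term per animal, since per the series design and descriptions both tissues of a pair come from 1 rat (2 residual degrees of freedom). Diet within each tissue was tested on group means over all 8 arrays, with no animal term (4 residual degrees of freedom). That fit takes the 2 arrays of a rat as independent, although only 2 rats per diet were measured. Diet over both tissues was tested on animal means. Exact tests of 4 pairs or of 2 against 2 cannot go below 0.125 or 0.333. The number of arrays limits the precision. Members and lists were chosen with earlier results of these data known. Named genes were up to 4 per direction and comparison of lowest p, with 1 sign in every pair or no overlap. They were at or above the table median, and a fixed panel was added. The other members are given by range. Dhodh, Aifm2, Mtrr and Cyb5r1 have differences printed outside this rule, chosen after their values were seen. Related lists are given by counts and medians. The plan was to name 2 genes of lowest p per list. Only Cd36, Sdhaf2 and Duox1 are named, each of lowest p in its list in at least 1 comparison. Alternatives were other normalisations, a low-value filter, probe-set averaging, an intensity trend, the array SD as covariate, no animal term, and each animal left out. The limma script was tested on simulated data. Promoters were the 250 bases before RefSeq starts on GRCr8, searched on both strands for 7 motifs. Beside the NRF1 core and GC box, these were a nuclear receptor half-site (AAGGTCA, in 1 of 45 members' windows and 3.99% of all promoters), the ETS core (CCGGAAG, 3 and 7.27%), the TATA box (TATAAA, 1 and 12.9%), the E-box (CACGTG, 2 and 5.59%) and the AP-1 site (TGACTCA, 2 and 4.05%).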

Additional observations from a re-analysis of the deposited data

Results flagged for a closer look

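In 6 of the 48 genes (12.5%, against 10.9% of all genes) the neoplasia difference had one sign in both normal-diet pairs and the opposite sign in both deficient-diet pairs. The differences between diets (deficient minus normal, log2) were 0.55 for Acad8, -0.82 for Etfb, -0.25 for Gpd2, 0.31 for Nqo2, -1.38 for Sqle and -0.53 for Smox. The interaction term in limma gave an adjusted p of 1 for each, and Smox lay below the table's median gene. No group held enough arrays for a search for outlying samples.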

How the results depend on the processing

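No gene passed an adjusted p under 0.05 in limma in any comparison under any alternative run, so no call could be lost or reversed. The median of all members moved by more than its replicate spread in a few cases. Leaving out animals moved it to between -0.0691 and 0.0697 on the normal diet, -0.0438 and 0.0036 on the deficient diet and -0.0278 and 0.091 for their difference. For diet in neoplasia it was -0.12 with the genes under the table median removed, which tests fewer members, and 0.0872 with the array SD as a covariate, where the cause was not tested. Pairing by animal is a block in the neoplasia fits; without the replicate block the median of members was -0.01 for the mean neoplasia effect, as with it, and 0 genes were called. Among 31 members tracked singly, 12 to 21 per comparison changed sign when at least 1 animal was left out and 5 to 17 under another alternative. The diet difference of Sqle in neoplasia was -0.79 after cyclic loess. Signal over background limits 36 members, which exceeded the upper quartile of the negative controls on no array.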

Other observations

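Stromal markers differed most in the second normal-diet pair. The median neoplasia difference of 10 smooth muscle genes was -1.65 there and -0.32 to 0.25 in the other 3 pairs, and that of 9 fibroblast genes was -1.62 there and -0.06 to 0.24 in the others. Adiponectin (Adipoq), a fat cell hormone, read 8.36 on deficient-diet neoplasia replicate 1. That array also held the highest values of Dhodh, Acadsb, Kdm1b, Aifm2, Mical1 and Maob. Of all genes, 10.8% were highest on that array, so 6 of the 48 members is near that background. The lead of that array over the next was 0.47 for Dhodh and at most 0.0995, in Acadsb, for the others. A second, lower probe set of Acadsb read 4.15 on that array and was highest on normal-diet adjacent normal replicate 1, at 4.58.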
